A study of Mus musculus with 6 samples.

Results

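Ribosomal protein pseudogenes are copies of the genes that encode the proteins of the cytosolic ribosome. The set described here holds every gene whose mouse symbol starts with Rpl or Rps and contains -ps, averaging 0.1 FPKM or more across the 6 libraries. FPKM is the number of fragments assigned to a gene, scaled to the length of its exons and to the depth of the library. Of 300 genes with such a symbol, 152 had a value above 0 in at least 1 library and 109 met the level, out of 54532 genes in the table, of which 21369 were tested. The members were chosen by their symbol and this mean level, so levels are given as a description. The rule holds no term for the difference between the groups, though it was written with earlier results of these data known. The 109 comprise 65 copies of large subunit (Rpl) genes and 44 of small subunit (Rps) genes, from 46 parent genes, where the parent is the gene named by the symbol before -ps. The annotation types 99 of them as processed pseudogenes, 6 as transcribed processed pseudogenes and 4 as protein-coding (Rpl10-ps3, Rpl36a-ps1, Rpl9-ps6 and Rps12-ps3).

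The libraries were made from total RNA of cervical spinal cords of 6 C57BL/6 mice. In 3 of the mice allergic contact dermatitis (ACD) was raised with the contact allergen SADBE (squaric acid dibutylester), and 3 were controls. The treatment was 20 µl of 1% SADBE in acetone on shaved abdominal skin daily for 3 days, then, 5 days later, the same dose on the shaved nape daily for 3 days in the ACD group. The control group received acetone alone, and the labels leave unclear whether its abdominal skin had received SADBE. Neither group carries a stated transgene or deletion, the age and sex of the animals are not in the labels, and the 3 libraries of a group are called biological replicates, 1 mouse each by the design text.

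A processed pseudogene arises when a spliced messenger RNA is copied into DNA and inserted elsewhere in the genome, so it usually lacks the introns and the promoter of its parent. Ribosomal protein genes, which are transcribed strongly in nearly all cells, have left many such copies. A sequencing read from the parent's messenger RNA can match a copy as well as its source, and a read across a splice junction of the parent is contiguous in the copy. A value for a pseudogene is therefore the number of reads assigned to its position, and it does not say which of the matching genes was transcribed.

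The likeness of copies and parents is shown by stretches of 90 bases of coding sequence, chosen to show how few or how many bases separate a copy from its parent. Coordinates and sequences are those of GRCm38 and GENCODE M21, printed 5′ to 3′ along the gene. Capitals in a parent line mark the positions where any copy shown under it differs, and capitals in another line mark where that sequence differs from the parent. Rpl31-ps8 (chr15:90764419-90764508, minus strand) is identical to Rpl31 (gene at chr1:39367842-39371911, plus strand) over this stretch and over all 346 aligned coding bases:
Rpl31: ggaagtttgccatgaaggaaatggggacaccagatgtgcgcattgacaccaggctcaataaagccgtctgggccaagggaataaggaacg
Rpl31-ps8: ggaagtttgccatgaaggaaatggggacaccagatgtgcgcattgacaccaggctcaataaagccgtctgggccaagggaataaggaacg
Rpl9-ps4 (chr13:72455077-72455166, minus strand) differs from Rpl9 at 1 of 576 coding bases, and Rpl9-ps7 (chr2:70459156-70459245, plus strand) at 3 of 576:
Rpl9: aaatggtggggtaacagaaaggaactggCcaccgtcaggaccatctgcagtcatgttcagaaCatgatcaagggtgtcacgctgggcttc
Rpl9-ps4: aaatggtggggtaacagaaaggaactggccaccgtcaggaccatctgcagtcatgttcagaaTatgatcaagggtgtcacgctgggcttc
Rpl9-ps7: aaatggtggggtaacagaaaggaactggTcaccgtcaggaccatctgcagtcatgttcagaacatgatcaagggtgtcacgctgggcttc
Rps10-ps2 (chr16:20822185-20822274, minus strand) differs from Rps10 at 4 and Rps10-ps1 (chr3:95622644-95622733, plus strand) at 6 of 456 aligned coding bases:
Rps10: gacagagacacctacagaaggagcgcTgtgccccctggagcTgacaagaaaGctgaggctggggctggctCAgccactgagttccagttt
Rps10-ps2: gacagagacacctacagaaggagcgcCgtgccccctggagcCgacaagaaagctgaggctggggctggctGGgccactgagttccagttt
Rps10-ps1: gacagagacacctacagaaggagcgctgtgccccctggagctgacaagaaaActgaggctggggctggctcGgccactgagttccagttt
Rpl36a-ps3 (chr6:136488901-136488990, plus strand) is a copy whose name and sequence point to different genes. It differs from Rpl36a, its parent by symbol, at 40 of 318 coding bases and from Rpl36al, a related gene, at 1 of 318:
Rpl36a: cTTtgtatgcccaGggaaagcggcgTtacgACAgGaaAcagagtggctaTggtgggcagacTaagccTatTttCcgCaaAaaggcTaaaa
Rpl36a-ps3: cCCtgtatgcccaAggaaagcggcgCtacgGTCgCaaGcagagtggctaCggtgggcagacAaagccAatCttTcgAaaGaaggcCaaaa
Rpl36al: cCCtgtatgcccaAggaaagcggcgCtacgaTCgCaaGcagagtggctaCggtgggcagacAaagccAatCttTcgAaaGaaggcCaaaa

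Many stretches of the 109 copies do not tell a read apart from one of another gene. Over the best alignment to a transcript of the parent the median identity was 99.1%, the lowest was 87.5% for Rpl36a-ps3, and 13 copies were identical. For 106 of the 109 the parent was the best or an equal best coding match. The exceptions were Rpl36a-ps3, Rps26-ps1, which matched Med21, and Rps7-ps2, which matched Odc1 and had no alignment to Rps7. Each copy was then divided into all its words of 75 bases. A median of 68.8% of a copy's words occurred in a transcript of some other annotated gene and 49.8% in its parent. In 21 copies no word was their own, and in 71 at least 50% of the words were shared. Only 10 copies shared under 10%. Of the words shared with the parent, a median of 57.0% lay across a junction of parent exons and in no single exon, and this share was over 50% in 68 of the 101 copies that shared any word. The read length, the use of strand and the treatment of reads with several matches are unknown from the labels, so the effect of shared words on the assigned reads was not tested.

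The levels of the pseudogenes ran from 0.103 to 174 FPKM, with a median of 1.30 FPKM, against a median of 76.7 FPKM for the 46 parents. The median pseudogene stood at 1.75% of its parent's FPKM, 31 stood at 10% or more and 45 under 1%. Exon length enters this ratio, since the median length was 480 bases for the copies and 1993.5 for the merged exons of the parents. With length counted instead in words found in no other gene, 13 of the 88 copies that have such words stood above their parent. The reads in that ratio are all those of the gene, since FPKM do not show where in a gene a read lies. It therefore does not count reads at the unshared words. Whole reads could be recovered for 106 of the 109, and 55 had a mean of at least 10 reads per library.

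**Figure D1:**
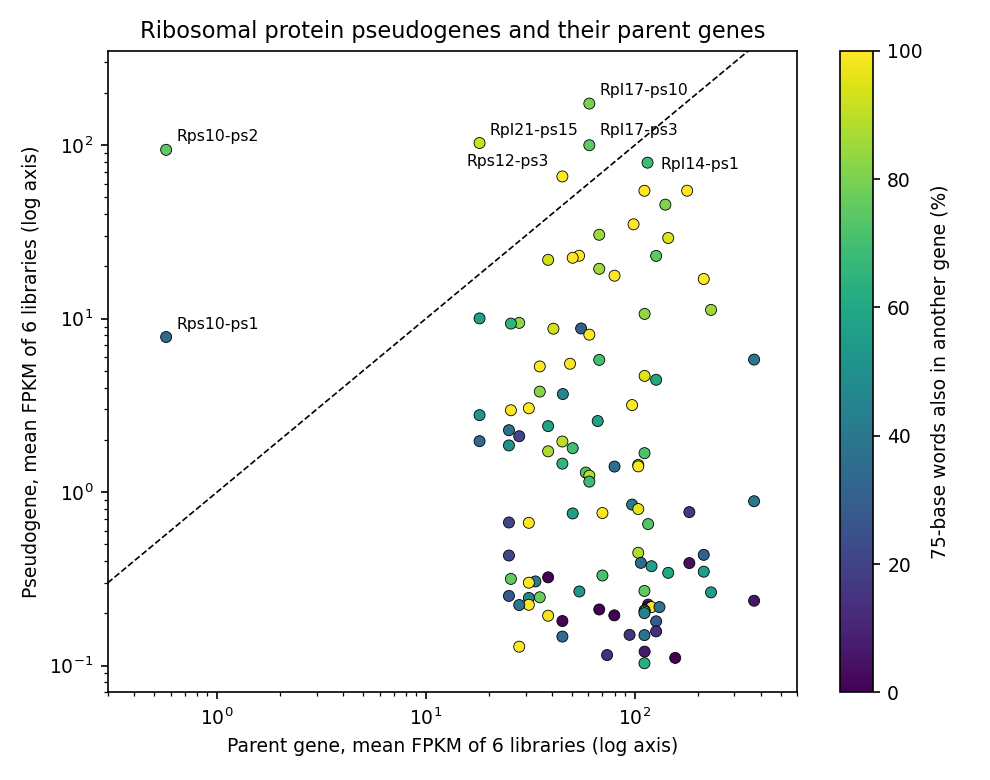
Mean FPKM over 6 libraries of each of 109 pseudogenes (vertical, log axis) against that of its parent (horizontal, log axis), coloured by the percentage of 75-base words also found in another annotated gene. The dashed line marks equal levels, and 6 copies lie above it, Rps10-ps2 and Rps10-ps1 farthest to the left.

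By mean FPKM 6 copies stood above their parent. Rps10-ps2 had 165 and Rps10-ps1 13.7 times the level of Rps10, which encodes a protein of the small subunit's beak. Of the exon bases of Rps10 28.7% lie also in exons of other genes, and such bases occurred in 24 of the 46 parents. The effect of these bases on the level of a parent was not tested. Rpl21-ps15 had 5.70 times the level of Rpl21. Rpl17-ps10 had 2.87 and Rpl17-ps3 1.65 times the level of Rpl17, whose protein lines the exit tunnel of the large subunit. In control 2, unlike the other libraries, these copies lay below Rpl17, at 46.2% and 49.7% of its level. Rps12-ps3 had 1.47 times the level of Rps12, from which it does not differ in any of its 494 bases. The 10 copies with the most reads in a library held 71.4% ± 2.79 (SD, n = 3) of all reads in the set in controls and 67.5% ± 1.77 (n = 3) in ACD.

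At the lower end the level rule alone decided membership. Just above it lay Rpl29-ps2 at 0.115, Rpl26-ps6 at 0.111 and Rpl31-ps12 at 0.103 FPKM, which rest on 2.83, 0.833 and 0.667 mean reads. Just below it lay Rps12-ps10 at 0.0888, Rpl13-ps3 at 0.0886 and Rpl19-ps3 at 0.0866 FPKM. A single read in 500 bases was worth 0.0988 to 0.118 FPKM, so a few reads separate the included from the excluded. A value of 0 in such a gene allows up to 3 reads, or 0.296 to 0.355 FPKM, for counting error alone.

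The read totals to which the FPKM were scaled lay between 16916600 and 18583992 in controls, and between 17346315 and 20245576 in ACD. Markers of neurons, motor neurons, oligodendrocytes, endothelium, ependyma and cervical position had summed levels above 0 in all 6 libraries, and none of them was called by limma. The sums of each of these lists overlapped between the groups. Those of oligodendrocytes were 4284 to 6548 FPKM in controls and 6490.5 to 7719 FPKM in ACD, and those of neurons 901 to 1177 and 1134 to 1255 FPKM. The 5 microglia markers summed to 63.8 to 86.9 FPKM in controls and 99.2 to 108 FPKM in ACD, with 2 called higher. The 5 astrocyte markers summed to 709.5 to 825 FPKM in controls and 920.2 to 991 FPKM in ACD, with 1 called higher. Among cell types outside the cord, the 5 erythroid markers summed to 100 to 389 FPKM in controls and 481 to 772 FPKM in ACD, and the 4 Schwann cell markers to 144 to 228 and 312 to 447 FPKM. The 4 muscle markers summed to 2.21 to 16.0 FPKM in controls and 0.662 to 1.21 FPKM in ACD. None of the erythroid, Schwann cell or muscle markers was called by limma. Among 4 markers of dorsal root ganglion neurons Mrgprd was at 0, and the list summed to 1.33 to 1.81 and 0.968 to 1.39 FPKM. Of 9 nuclear-retained RNAs 6 were lower in ACD by limma, where the share over all tested genes was 2.53%. Among them Malat1 stood at 151 ± 25.4 (SD, n = 3) FPKM in controls and 30.6 ± 9.53 in ACD. The part of these shifts in the values of the pseudogenes was not tested. In a bulk sample fewer cells of a type and less RNA per cell cannot be told apart.

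Control and ACD cords were then compared, a contrast that addresses the state of cord tissue during inflammation of the nape skin. Of the 109 pseudogenes 19 were higher in ACD and 2 lower by limma at a Benjamini-Hochberg adjusted p under 0.05, or 21 in either direction, where the background over all tested genes was 1.81% higher, 2.53% lower and 4.34% in either direction. The median log2 difference, ACD minus control, was 0.28 for the set and -0.0099 for all tested genes. It was positive for 74 and negative for 35 of the copies. In 35 copies every ACD library lay above every control library and in 10 below, where the background over all tested genes was 13.1% and 15.5%. Of the 55 copies with at least 10 mean reads 17 were higher and 1 lower, with a median of 0.63, against 2.19% and 2.53% among all tested genes of that depth. Of the 51 copies under 10 mean reads none was higher and 1 was lower by limma, with a median of 0.15. The count of higher members depended on single libraries: it was 9 without control 1, 10 without ACD 1, 12 without ACD 2 and 6 without ACD 3. All 19 kept a positive difference in each of these fits and in those without control 2 (20 higher) and control 3 (13 higher). They kept it under TPM, upper quartile and length and GC scaling as well. The 19 were picked by a large positive difference in these same libraries, so a kept sign is no separate evidence.

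**Figure D2:**
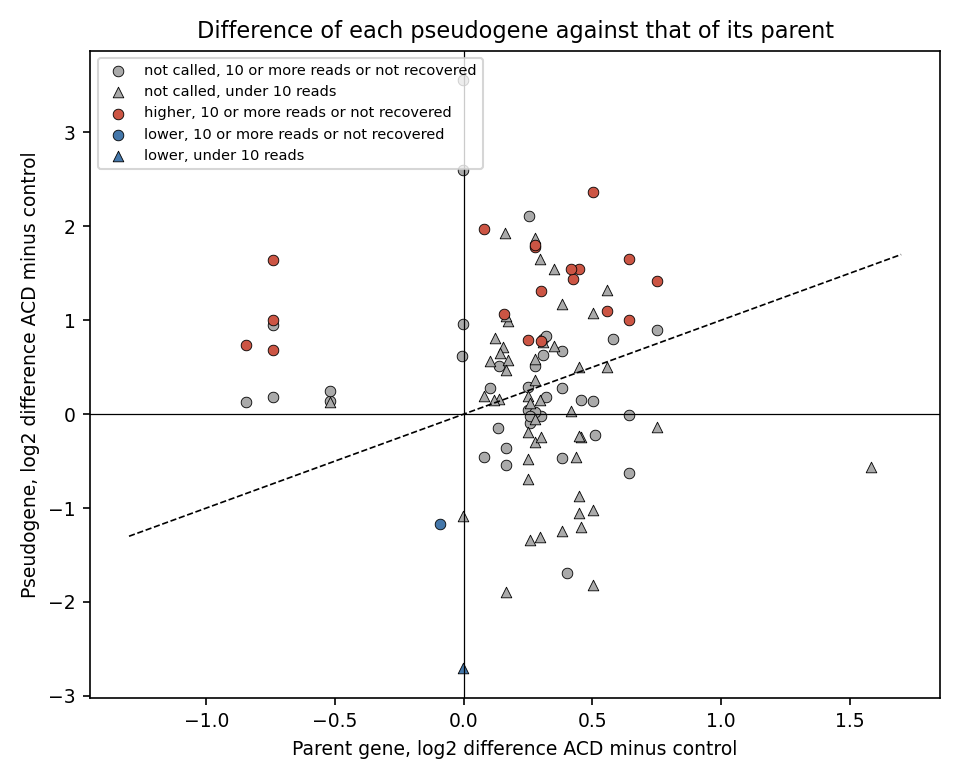
Log2 difference, ACD minus control, of each of 109 pseudogenes (vertical) against that of its parent (horizontal), with the dashed line marking equal differences. Colour shows the limma call at adjusted p under 0.05 and shape the mean reads. The 19 red points, called higher, all lie above the line. They were picked by their own difference, and the parents were not.

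More parents were called higher than lower, too, where the background over all tested genes was 1.81% higher and 2.53% lower. Of the 46 parents 11 were higher and 1, Rpl7a, was lower (-0.52, limma adjusted p = 0.0339), with a median difference of 0.27. Of all 79 cytosolic ribosomal protein genes 14 were higher and 1 was lower, with a median of 0.25. The higher parents numbered 2 without control 1, 11 without control 2, 7 without control 3 and 1 without any one ACD library, and the higher ribosomal protein genes 3, 17, 10 and 1. Rps13 was the parent that kept its call in all 6 of these fits, and Rpl7a kept its own only without control 3. Among the 19 higher pseudogenes 5 had a parent that was also higher and 14 a parent that was not called, and all 19 had a difference above that of the parent. The 19 were picked by a large difference in these same libraries and the parents were not, so this comparison favours the copies. Among 170 other tested genes with -ps in the symbol 11 were higher and 3 lower, with a median of -0.042. Of 1435 further processed pseudogenes 64 were higher and 45 lower, with a median of -0.12. Those of them with at least 10 mean reads, 517 genes, had 54 higher and 21 lower and a median of 0.071.

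Calls were also counted by ribosomal subunit, and the difference between the subunits was not tested. Over all tested genes 1.81% were higher and 2.53% lower by limma. Of the 65 Rpl copies 15 were higher and 2 lower, with a median of 0.58. Of the 44 Rps copies 4 were higher and none lower by limma, with a median of 0.085. By position, 8 of the 49 copies that lie within the span of another gene were higher and 2 lower, and 11 of the 60 outside any other gene were higher. On the X chromosome none of the 10 copies was called by limma, too few copies to set against the 4.34% called over all tested genes.

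Rpl31-ps8 (ENSMUSG00000067870) had the smallest p of the set. Its parent encodes a large subunit protein near the exit of the peptide tunnel. Rpl31-ps8 stood at 27.2, 29.2 and 26.7 FPKM in controls 1 to 3 and at 75, 82.7 and 86.5 FPKM in ACD 1 to 3. The ACD values were well above the control values, with no overlap and little spread within either group. The log2 difference was 1.55 ± 0.0755 (SE, limma adjusted p = 0.00134), on a mean of 379.5 reads. Rpl31 stood at 94.6, 109 and 80.0 FPKM in controls and at 127, 132 and 124 in ACD, a difference of 0.45 (adjusted p = 0.0713). The groups of Rpl31 did not overlap either, but the shift was smaller, and the copy went from 29.3% to 63.7% of the parent's mean level. Over its whole length no word of Rpl31-ps8 is its own.

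**Figure D3:**
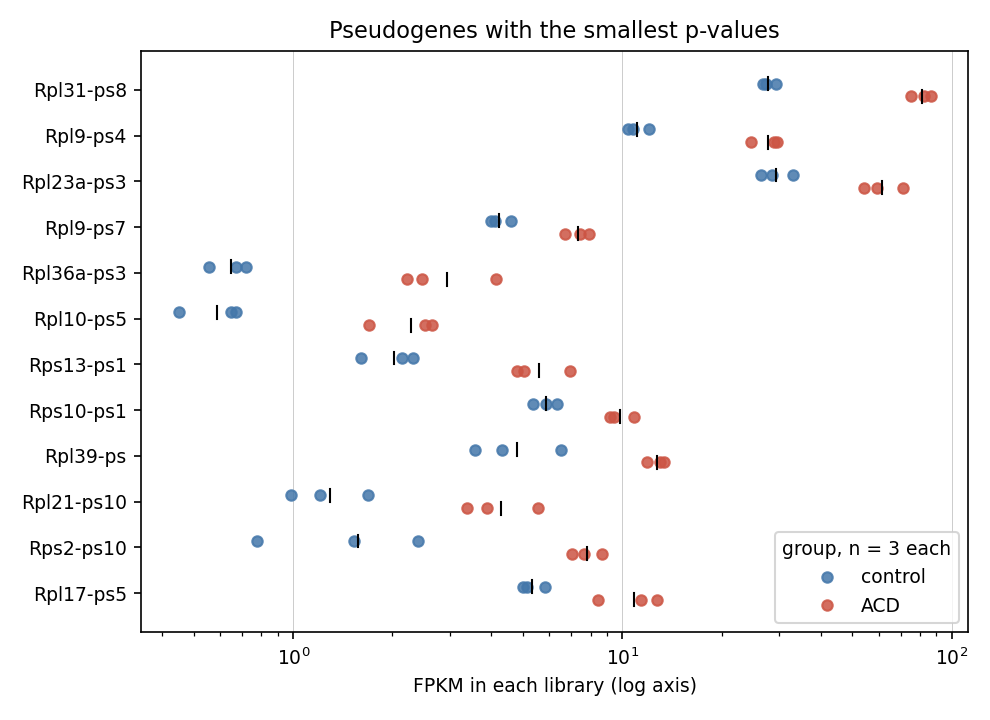
FPKM in each library (log axis) of the 12 pseudogenes with the smallest p among those called, with 3 control (blue) and 3 ACD (red) libraries and black bars for the group means. In every one of the 12 the ACD points lie above all control points. They run from Rps2-ps10 with the widest control spread to Rpl31-ps8 with 26.7 to 29.2 against 75 to 86.5. The 12 were picked by their p in these same libraries, which favours groups that lie apart. Over all tested genes ACD lay above control without overlap in 13.1%.

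Copies of Rpl9, which encodes a protein at the base of the stalk that binds translation factors, rose in ACD at more than 1 position. Rpl9-ps4 (ENSMUSG00000094989) stood at 10.4, 10.8 and 12.1 FPKM in controls and at 24.6, 28.9 and 29.5 in ACD. Rpl9-ps7 stood at 4.59, 4.09 and 3.98 FPKM in controls and at 6.67, 7.42 and 7.93 in ACD. Neither pair of groups overlapped, and Rpl9-ps4 lay above Rpl9-ps7 in every library. The log2 differences were 1.31 ± 0.0942 (SE, limma adjusted p = 0.00417) and 0.78 ± 0.0952 (adjusted p = 0.0120), and Rpl9-ps7 missed the threshold without ACD 3 (0.0509). Rpl9-ps6, typed as protein-coding, had a difference of -0.017 (adjusted p = 0.933) at a mean of 30.4 FPKM. Rpl9 itself stood at 60.6 ± 4.67 and 74.5 ± 2.64 FPKM (SD, n = 3), a difference of 0.30 (adjusted p = 0.0710). The single base that separates Rpl9-ps4 from the coding sequence of Rpl9 leaves 75 words of its own, and 85.1% of its words are shared. Of the 505 words of Rpl9-ps7, 137 occurred within an exon of Rpl9 and a further 167 only across its exon junctions.

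Rpl23a-ps3 and Rpl39-ps are copies of genes whose proteins lie at the exit tunnel, and both rose. Rpl23a-ps3 stood at 28.4, 33.0 and 26.4 FPKM in controls and at 71.0, 59.4 and 54.1 in ACD, a difference of 1.07 (limma adjusted p = 0.0107). Rpl39-ps stood at 4.31, 3.56 and 6.49 FPKM in controls and at 11.8, 13.4 and 13.0 in ACD, a difference of 1.44 (adjusted p = 0.0169). The groups were apart for both, and the controls of Rpl39-ps were the more scattered. Of the 394 words of Rpl23a-ps3, 140 occurred within an exon of Rpl23a and a further 179 only across its exon junctions. Rpl39-ps, of 151 bases, shared only 28.6% of its words with any other gene and rested on 24.3 mean reads. Its adjusted p was 0.0602 without control 1, 0.0525 without ACD 1, 0.0566 without ACD 2 and 0.0715 without ACD 3. Their parents Rpl23a and Rpl39 had differences of 0.16 and 0.42 (adjusted p = 0.291 and 0.0890), and 62.3% of the exon bases of Rpl23a lie also in exons of other genes.

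Rpl36a-ps3 rose as well, at a low level. Rpl36a-ps3 stood at 0.552, 0.671 and 0.719 FPKM in controls and at 4.13, 2.46 and 2.21 in ACD, a difference of 1.98 ± 0.24 (SE, limma adjusted p = 0.0121) on 10.5 mean reads. The ACD values scattered more than the control values but did not reach them. Rpl36a, whose protein sits near the exit site for transfer RNA, stood at 49.1 ± 7.01 and 51.7 ± 5.16 FPKM (SD, n = 3). Rpl36a-ps3 shared 0 words with Rpl36a and 69.6% with some other gene. Its closest coding match Rpl36al had 0.269 ± 0.0965 FPKM in controls and 0.249 ± 0.0399 in ACD, on 4 to 8 reads a library. Against Rpl36al the copy stood at 241% of the level in controls and 1178% in ACD.

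Copies of Rpl10, whose protein joins the large subunit late in its assembly, were low and higher in ACD at 2 positions. Rpl10-ps5 stood at 0.645, 0.671 and 0.449 FPKM in controls and at 2.51, 1.69 and 2.64 in ACD. Rpl10-ps1 stood at 0.733, 0.334 and 0.626 FPKM in controls and at 2.23, 1.38 and 3.14 in ACD. The groups did not overlap at either position, and from controls to ACD Rpl10-ps5 went from 0.625% to 2.01% and Rpl10-ps1 from 0.600% to 1.98% of the mean level of Rpl10. The differences were 1.78 (limma adjusted p = 0.0127) and 1.80 (adjusted p = 0.0384), on 16.8 and 16.5 mean reads, and that of Rpl10 was 0.28 (adjusted p = 0.109). Rpl10-ps5 lost its call without ACD 1 (adjusted p = 0.0501) and without ACD 3 (0.0581). Rpl10-ps1 kept its call in 1 of the 6 fits that left out a library, that without ACD 2, with adjusted p between 0.0474 and 0.121. Rpl10-ps1 has no word of its own, while 83.8% of the words of Rpl10-ps5 are shared, and Rpl10-ps5 lies in an intron of Nup93 on the same strand (Nup93 difference -0.24, adjusted p = 0.382).

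A copy of Rpl17 had the highest level of the set, and 1 library stood apart in this family. Rpl17-ps10 stood at 221, 78.3 and 216 FPKM in controls and at 183, 179 and 165 in ACD. Rpl17 stood at 40.4, 170 and 38.2 FPKM in controls and at 35.7, 43.0 and 36.5 in ACD. Control 2 stood apart in opposite directions for copy and parent. There the copies held 29.5% of the reads of parent and copies together, against 76.0% to 79% in the other 5 libraries. The recovered reads of Rpl17 were not whole in every library, so these percentages are estimates. The difference of Rpl17-ps10 was 0.18 (limma adjusted p = 0.823) with control 2 and -0.31 (adjusted p = 0.0763) without it. That of Rpl17 was -0.74 (adjusted p = 0.485) and -0.038 (adjusted p = 0.854).

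Control 2 lay near the other controls at Rpl17-ps3 and Rpl17-ps5 and below them at Rpl17-ps9. Rpl17-ps3 stood at 78.7, 84.3 and 66.9 FPKM in controls and at 126, 133 and 111 in ACD, a difference of 0.69 (limma adjusted p = 0.0233). Rpl17-ps5 stood at 5.11, 5.82 and 4.99 FPKM in controls and at 8.41, 12.7 and 11.4 in ACD, a difference of 1.00 (adjusted p = 0.0216). Rpl17-ps9 stood at 0.639, 0.291 and 0.623 FPKM in controls and at 2.18, 1.78 and 1.38 in ACD, a difference of 1.64 (adjusted p = 0.0323). The groups did not overlap for any of these copies. Of the 482 words of Rpl17-ps3, 160 occurred within an exon of Rpl17 and a further 203 only across its exon junctions. For Rpl17-ps5 these were 148 and 183 of 481 words, and for Rpl17-ps9 102 and 229 of 481. The adjusted p of Rpl17-ps3 was 0.0662 without control 1, 0.0870 without ACD 1, 0.0793 without ACD 2 and 0.0551 without ACD 3. Rpl17-ps5 missed the threshold without control 1, control 3, ACD 2 or ACD 3, with 0.0850 the highest adjusted p, and Rpl17-ps9 in all fits that left out a library except the one without control 2, up to 0.109.

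**Figure D4:**
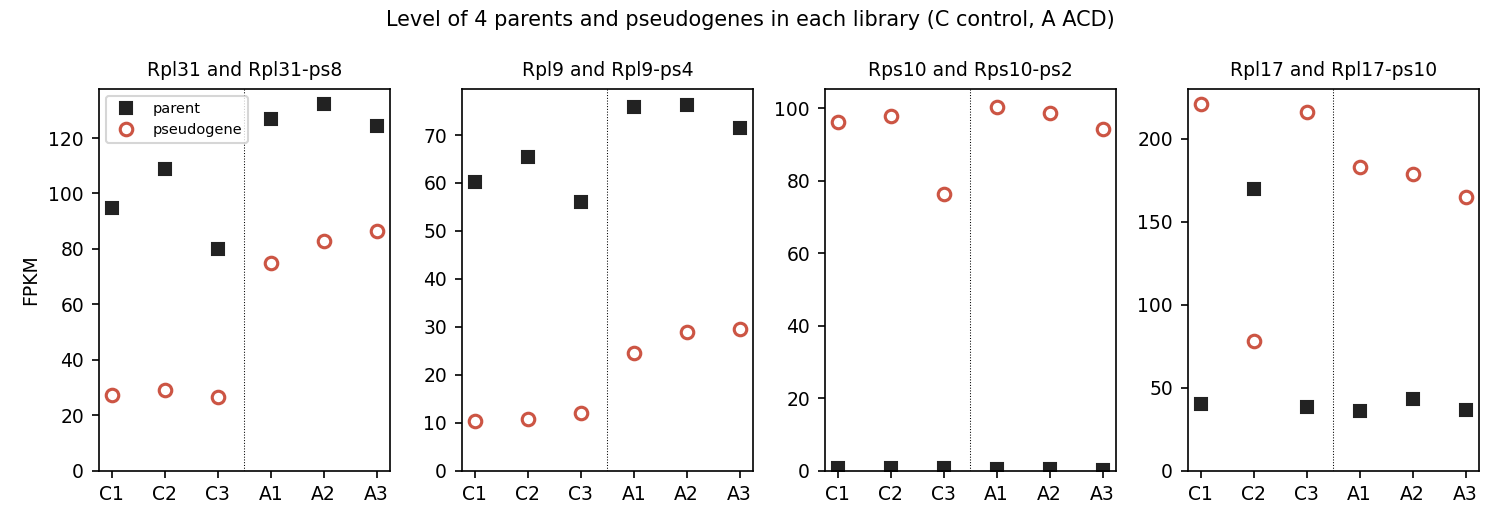
FPKM of 4 parents (black squares) and pseudogenes (red circles) in control libraries C1 to C3 and ACD libraries A1 to A3, with axes starting at 0. Rpl31-ps8 and Rpl9-ps4 lie higher in ACD, Rps10-ps2 lies far above Rps10 in all 6 libraries, and Rpl17 and Rpl17-ps10 trade places in control 2.

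Among the copies of Rpl21, the most abundant was not called, while the parent was. Rpl21-ps15 (ENSMUSG00000083596), in an intron of Wnk3 on the opposite strand, stood at 98.5, 120 and 91.1 FPKM in controls and at 102, 108 and 96.9 in ACD. The groups overlapped, with a difference of -0.0046 (limma adjusted p = 0.987). Rpl21 rose by 0.64 (adjusted p = 0.0289), from 14.1 ± 1.55 to 22.0 ± 2.45 FPKM (SD, n = 3), though every fit that left out a library gave it an adjusted p above the threshold, from 0.0509 to 0.0909. Rpl21-ps10 stood at 0.985, 1.68 and 1.20 FPKM in controls and at 3.36, 5.56 and 3.87 in ACD, a difference of 1.65 (adjusted p = 0.0193). It missed the threshold without control 1 (0.0561), control 3 (0.0506) or ACD 3 (0.0699). Rpl21-ps8, in an intron of the myelin gene Mbp on the opposite strand, rose by 1.00 (adjusted p = 0.0235), from 6.61 ± 0.843 to 13.4 ± 2.57 FPKM, and kept its call in 1 of 6 such fits, that without ACD 1 (adjusted p up to 0.0892). Mbp stood at 2396 ± 497 and 3030 ± 297 FPKM, and reads of the opposite strand there cannot be told apart without strand. Rpl21-ps11, which shares 34.2% of its words, had a difference of -0.63 (adjusted p = 0.497) with overlapping groups.

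The 2 lower members were both Rpl copies. Rpl38-ps2, identical over its 213 bases to Rpl38, a gene known for its part in the translation of Hox messenger RNAs, stood at 72.2, 92.7 and 60.9 FPKM in controls and at 45.5, 31.8 and 24.6 in ACD. The groups did not overlap and the difference was -1.17 ± 0.24 (SE, limma adjusted p = 0.0470). Rpl38 itself differed by -0.092 (adjusted p = 0.715), between 183 ± 20.6 and 173 ± 25.7 FPKM (SD, n = 3). The call of Rpl38-ps2 held in 1 of the 6 fits that left out a library, that without ACD 1, with adjusted p between 0.0380 and 0.140. Rpl30-ps2 stood at 0.813, 0.925 and 0.198 FPKM in controls and at 0 in all ACD libraries. That is a mean of 1.67 reads over the 6 libraries, where 0 allows up to 3 reads in each, so the fitted difference of -2.71 (adjusted p = 0.0381) depends on the pseudocount and is no bound. It too kept its call in 1 of 6 such fits, that without control 3, with adjusted p up to 0.115.

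Further copies of Rpl30, whose protein forms a bridge between the subunits, lay above the controls in ACD without passing the test. Rpl30-ps1 stood at 0.340, 0.928 and 0 FPKM in controls and at 4.14, 2.55 and 6.44 in ACD (difference 3.56, limma adjusted p = 0.0629). Rpl30-ps8 stood at 0.343, 0.624 and 0.167 FPKM in controls and at 5.68, 1.43 and 2.06 in ACD (difference 2.60, adjusted p = 0.0501). Both sets of groups were apart, and both copies scattered in ACD. Rpl30-ps10, the copy of Rpl30 with the highest level, stood at 10.6, 29.6 and 6.31 FPKM in controls and at 47.5, 13.0 and 23.9 in ACD, so its groups overlapped. Rpl30 had a difference of -0.0024 (adjusted p = 0.996).

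Rpl14-ps1 was among the 6 members with the highest mean and was not called, while Rpl36-ps12 and Rpl27-ps3 rose at lower levels. Rpl14-ps1 stood at 78.9, 74.2 and 72.5 FPKM in controls and at 84.2, 81.5 and 84.1 in ACD. The groups were narrowly apart, the difference was 0.15 (limma adjusted p = 0.216), and Rpl14 rose by 0.46 (adjusted p = 0.0156). Rpl14 missed the threshold without control 1, ACD 1, ACD 2 or ACD 3 (adjusted p up to 0.0694). Rpl36-ps12, in an intron of Sumf1 on the same strand, rose by 1.10 (adjusted p = 0.0216), from 3.68 ± 0.768 to 7.92 ± 1.01 FPKM (SD, n = 3), while Sumf1 differed by 0.082 (adjusted p = 0.525). Rpl27-ps3 rose by 1.55 (adjusted p = 0.0263), from 1.62 ± 0.583 to 4.73 ± 0.677 FPKM, and has no word of its own. Their parents Rpl36 and Rpl27 had differences of 0.56 (adjusted p = 0.0253) and 0.42 (adjusted p = 0.0632), and the call of Rpl36 held with a library left out only where that was control 2. With a library left out Rpl36-ps12 missed the threshold without ACD 1 or ACD 3 (adjusted p up to 0.0822). Rpl27-ps3 passed it without control 1 or control 2 and missed it otherwise (up to 0.101). Rpl28-ps3, which shares 35.7% of its words, had a difference of 0.83 (adjusted p = 0.193) with overlapping groups.

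Among the small subunit copies, those of Rps10 took nearly all reads of their family. Rps10-ps2 (ENSMUSG00000099764) stood at 96.2, 97.9 and 76.4 FPKM in controls and at 100, 98.7 and 94.3 in ACD. Rps10 stood at 0.691, 0.862 and 0.724 FPKM in controls and at 0.349, 0.492 and 0.308 in ACD. The groups of Rps10-ps2 overlapped (difference 0.13, limma adjusted p = 0.526), and those of Rps10 did not (difference -0.84, adjusted p = 0.0827). The copies held 96.0% to 96.9% of the family's reads in controls and 98.0% to 98.6% in ACD. Rps10 shares 28.7% of its exon bases with exons of other genes, and the effect on these percentages was not tested. Rps10-ps1 stood at 5.85, 6.30 and 5.36 FPKM in controls and at 9.43, 10.9 and 9.17 in ACD. Its groups were apart, with a difference of 0.74 ± 0.0959 (SE, adjusted p = 0.0136), and only the fit without control 1 took its adjusted p above the threshold (0.0519). Rps10-ps1 shares 33.5% of its words with Rps10, so 280 of its words are its own.

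Copies of Rps13, Rps2 and Rps6 made up the other small subunit members that rose. Rps13-ps1 stood at 2.31, 1.60 and 2.14 FPKM in controls and at 5.04, 4.77 and 6.91 in ACD, a difference of 1.42 (limma adjusted p = 0.0135). Rps13 rose too, by 0.75 (adjusted p = 0.00697), from 26.1 ± 1.76 to 44.0 ± 1.47 FPKM (SD, n = 3). Of the 464 words of Rps13-ps1, 125 occurred within an exon of Rps13 and a further 237 only across its exon junctions. Rps2-ps10, a transcribed processed pseudogene on chromosome 18, stood at 1.53, 2.40 and 0.777 FPKM in controls and at 7.05, 7.63 and 8.67 in ACD. None of these groups overlapped, and the difference of Rps2-ps10 was 2.36 (adjusted p = 0.0208). Of the 891 words of Rps2-ps10, 371 occurred within an exon of its parent and a further 184 only across the parent's exon junctions. Its parent Rps2, whose protein lies at the entry of the messenger RNA channel, rose by 0.50 (adjusted p = 0.0401), a call that held with a library left out only where that was control 3 (adjusted p up to 0.138). Rps6-ps4, identical to Rps6, the gene of a protein phosphorylated under growth signals, rose by 0.79 (adjusted p = 0.0218), from 12.4 ± 2.24 to 21.4 ± 0.978 FPKM. With a library left out Rps2-ps10 passed the threshold without control 2 or control 3 and missed it otherwise (adjusted p up to 0.0822). Rps6-ps4 passed it without control 2 and missed it otherwise (up to 0.0861).

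Several small subunit copies did not pass the test. Rps12-ps3 stood at 56.6, 66.2 and 56.3 FPKM in controls and at 69.0, 78.0 and 69.9 in ACD. The groups were apart, with a difference of 0.28 (limma adjusted p = 0.128), beside 0.38 (adjusted p = 0.234) for Rps12, of which it is an exact copy. Rps25-ps1, a copy of a gene used in initiation at some viral messenger RNAs, stood at 5.32, 4.41 and 2.14 FPKM in controls and at 0.610, 1.05 and 1.88 in ACD. Its ACD values lay below all controls, with a difference of -1.69 (adjusted p = 0.0871), while that of Rps25 was 0.40 (adjusted p = 0.0595). Rps19-ps3 and Rps15a-ps6, which share 21.0% and 36.1% of their words, had differences of -0.019 and -0.36 (adjusted p = 0.981 and 0.534) with overlapping groups.

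Whether a copy moved apart from its parent was read from the log2 ratio of the pair in each library. The ratio was higher in every ACD than in every control library for 31 of the 109 pairs and lower for 18, and the groups overlapped for 60. Among 113 pairs of other genes with -ps in the symbol the ratio groups were apart for 15.0% above and 15.0% below. The exact two-sided permutation test of 3 against 3 libraries cannot go below 0.1, which every pair with separate groups reached. The median difference of the ratio was 0.22 over all pairs and 0.49 over those with at least 10 mean reads. The first of these turned to -0.078 with a pseudocount of 1 in place of 0.1, and was 0.43 over members with a mean of at least 0.5 FPKM. For 18 of the 19 higher copies the ratio groups were apart, Rpl21-ps8 being the exception. The higher copies were picked by their own difference, which enters the ratio, so these 18 are no separate evidence.

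By this ratio Rpl31-ps8 differed by 1.10, Rpl9-ps4 by 1.01, Rpl23a-ps3 by 0.91 and Rps10-ps1 by 1.58 on the log2 scale. Of the named pairs with at least 10 mean reads and separate groups, those of Rpl30-ps1 (3.56), Rpl30-ps8 (2.60), Rpl17-ps9 (2.38) and Rps25-ps1 (-2.10) differed most. Rpl17-ps3 stood at 195%, 49.7% and 175% of Rpl17 in controls and at 353%, 309% and 303% in ACD. Ratios to Rpl17 in the control group carry the swing of control 2, and even the highest control was below every ACD library. Rpl21-ps15 went the other way, from 734% to 464% of the level of Rpl21 (ratio difference -0.65), as did Rpl14-ps1, from 77.5% to 62.6% of Rpl14 (-0.31).

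The reads assigned to the pseudogenes and to their parents were also summed in each library. The pseudogenes took 9845, 10212 and 9255 reads in controls and 12710, 14195 and 12604 in ACD, with groups that did not overlap (exact permutation p = 0.1, the smallest possible). The parents took 113235, 145644 and 110074 reads in controls and 144898, 173926 and 148143 in ACD, and those groups overlapped (exact permutation p = 0.2). These sums are not scaled to depth and include genes whose recovered reads were not whole. Of all recovered reads the pseudogenes held 0.0552% ± 0.00395 (SD, n = 3) in controls and 0.0670% ± 0.00142 in ACD. The groups of this percentage did not overlap (exact permutation p = 0.1). As a share of the reads of pseudogenes and parents together, the pseudogenes held 7.44% ± 0.775 (SD, n = 3) in controls and 7.82% ± 0.260 in ACD. That share overlapped between the groups (exact permutation p = 0.6).

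The calls and levels were also set beside the classes of shared sequence, and over all tested genes 1.81% were higher and 2.53% lower. Of the 21 copies with no word of their own 5 were higher and 1 lower, with a median difference of 0.58 and a median level of 5.30 FPKM. Of the 50 with 50% to under 100% of words shared 11 were higher, with a median of 0.55 at 1.91 FPKM. Of the 38 under 50% 3 were higher (Rpl39-ps, Rps10-ps1 and Rpl36-ps12) and 1 lower, with a median of -0.083 at 0.249 FPKM. Of these the 10 under 10% had 1 lower and a median of -0.40 at 0.214 FPKM. The classes that share less had the lower median levels, and the part of depth in these counts was not tested.

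**Figure D5:**
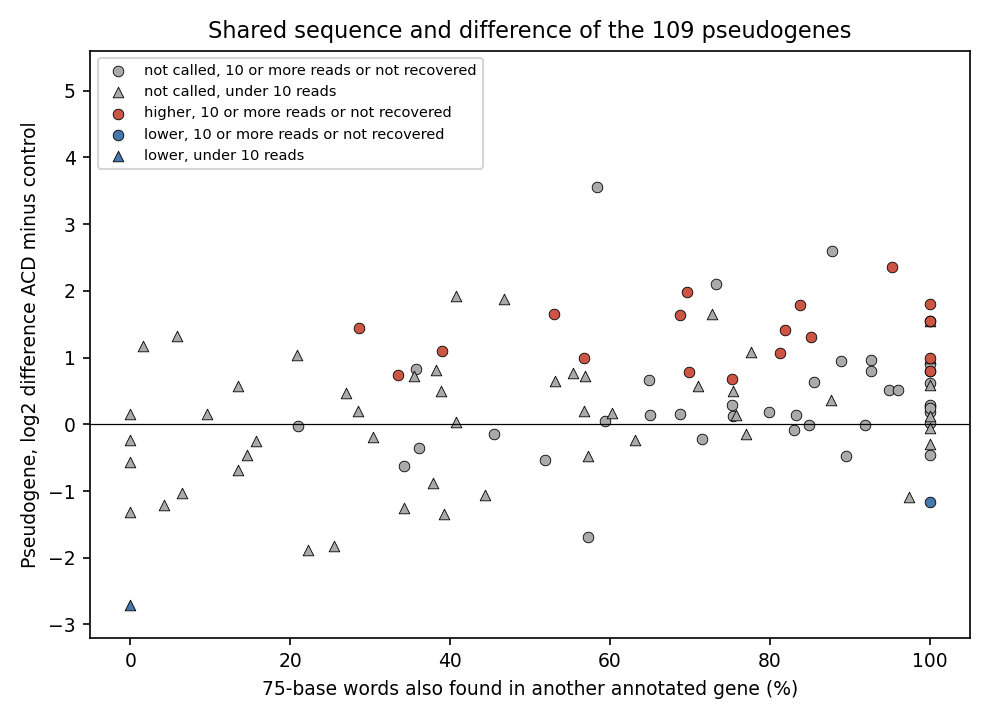
Log2 difference, ACD minus control, of 109 pseudogenes against the percentage of their 75-base words also found in another annotated gene. Colour shows the limma call and shape the mean reads. The 3 red points under 50% are Rpl39-ps, Rps10-ps1 and Rpl36-ps12, and the triangles, copies under 10 mean reads, gather at the left.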

How the data were processed

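The deposited values are FPKM, 1 table per library, made by the authors from reads. Tools named in the submitters' processing notes, without a role, are DESeq2 1.16.1, featureCounts 1.5.0-p3 and HISAT2 2.0.5, and the build is mm10. For read length, strand and the treatment of reads with several matches, nothing is stated in the labels. A count test was planned for counts, and since the files hold FPKM its stated fallback was used.

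The fit was limma 3.58.1 in R 4.3.3 (trend, robust) on log2(FPKM + 0.1), ACD minus control, over all 21369 genes averaging 0.1 FPKM or more, with Benjamini-Hochberg adjustment and a threshold of 0.05. Differences are on that scale, which understates those of low genes. Errors are SD with n = 3 or the SE of the fit.

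Reads were recovered as FPKM times exon length times the library's read total. They were whole, within 0.05, in all 6 libraries for 97.1% of genes with a value. Gene types, lengths, positions and transcript sequences came from GENCODE M21 (GRCm38), in which 54495 of 54532 identifiers were found. Words of 75 bases of annotated transcripts were compared on both strands, and copies aligned to coding transcripts with blastn 2.17.0. Unannotated copies elsewhere in the genome were not analysed here.

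The members and lists were chosen with earlier results of these data known. Named members are up to 12 called ones with the smallest p, the 6 with the highest mean, the 6 least shared and the 4 with the largest ratio difference among those with at least 10 mean reads (the latter with groups apart), the 3 on each side of the level, and their parents. The other called members (Rpl21-ps8, Rpl27-ps3, Rpl10-ps1, Rpl36-ps12, Rps6-ps4, Rpl38-ps2 and Rpl30-ps2), Rpl9-ps6, Rpl30-ps10 and single genes given as exceptions were named after their values were seen. Alternatives covered scaling, pseudocount, filter, test, replicate block, each library left out and word length.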

Additional observations from a re-analysis of the deposited data

How the results depend on the processing

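Counts of calls depended on the fit. All 19 higher members kept a positive difference wherever they were tested. They were picked by a large positive difference in these same libraries, so a kept sign is no separate evidence. Under TPM scaling, which moved the median of all genes to -0.10, the members' median was 0.41, and 22.8% of all calls were higher in place of 41.6% (30.9% with upper quartile scaling, 65% with the length and GC trend removed). With that trend removed 1397 genes were called, 30 members were higher and 1 lower, the members' median was 0.50, 17 parents and 28 ribosomal protein genes were higher and 0 lower. Upper quartile scaling left 6 parents and 8 ribosomal protein genes higher. A pseudocount of 0.01 gave 1 lower member and a median of 0.54. A pseudocount of 1 gave 0 lower members, and the median of member minus parent differences turned to -0.078. Without a filter 556 genes were called, with 0 lower members, 7 parents and 9 ribosomal protein genes higher and 0 lower. A mean of at least 0.5 left 66 members, with a median of 0.62 and a member minus parent median of 0.43. Voom on recovered reads called 1650 genes, 19 parents and 29 ribosomal protein genes higher, and 22 of 106 members higher and 3 lower. Plain eBayes called 420 genes, 8 members higher and 0 lower, and 2 parents and 2 ribosomal protein genes higher and 0 lower.

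Same-numbered libraries did not deviate together (correlations -0.028, 0.015 and 0.0035). The labels do not state that the numbers pair animals, and these correlations cannot decide it, since a pairing may leave no trace in them. The replicate block gave 181 calls, 11 members higher, 10 of them among the 19, and 0 lower, 2 parents and 3 ribosomal protein genes higher and 0 lower.

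Leaving out each library in turn gave 180 to 627 calls, 6 to 20 members higher and 0 to 1 lower with a median of 0.29 to 0.41, 1 to 11 parents higher and 0 to 1 lower with a median of 0.20 to 0.34, 1 to 17 ribosomal protein genes higher and 0 to 1 lower, and a member minus parent median of 0.14 to 0.33. Rpl31-ps8, Rpl9-ps4, Rpl23a-ps3, Rps13-ps1 and Rpl36a-ps3 kept their call in all 6 of these fits.

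With words of 31 bases the median shared share was 87.9% and 1 member shared under 10%, and with words of 100 bases it was 56.1%. The median log2 ratio of reads per kilobase to the parent was -5.83 with whole exon length. It was -5.06 with length counted in unshared words, for the 88 copies that have such words. Both ratios use all reads of a gene, so the second does not measure reads at unshared words. Few reads support the 51 members under 10 mean reads. Limma called 0 of them higher, and the part of depth in this was not tested.

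Of the named log2 differences refitted under every alternative 662 kept their direction and side of the threshold, 72 fell short of it, 23 passed it and 23 changed sign, all of them uncalled in both fits. With the length and GC trend removed the values were 0.22 for Rpl21-ps15, 0.20 for Rps19-ps3, 0.068 for Rpl31-ps12 and 0.16 for Rpl30. Voom gave 0.0049 for Rpl21-ps15 and 0.010 for Rpl30, and TPM -0.018 for Rpl36a. With a library left out the ranges were -0.31 to 0.43 for Rpl17-ps10, -0.091 to 0.11 for Rpl21-ps15, -0.27 to 0.29 for Rps19-ps3, -0.62 to 0.77 for Rpl26-ps6, -0.90 to 0.11 for Rpl31-ps12 and -0.21 to 0.13 for Rpl30. The cause of these shifts was not tested.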
